A study of Mus musculus with 30 samples.

Results

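Desert zones are the replication initiation zones of mouse embryonic stem cells that lie far from any protein-coding gene. A zone was counted as one when the midpoint of its breakpoint bin was in no protein-coding gene body and no protein-coding gene began or ended within 100 kb of it (RefSeq gene positions, mm10). The rule was met by 281 of the 2844 listed zones, or 9.88% (95% Wilson interval 8.84 to 11.03%). The list came from a single OK-seq library of wild-type E14TG2a cells, an established mouse embryonic stem cell line kept in medium with LIF plus a GSK3 and a MEK inhibitor, after 2 min of labelling with 10 µM EdU. The study asks how parental histones are divided between the daughter strands, and whether the histone-binding part of the helicase subunit MCM2 takes part. Its other 29 samples, SCAR-seq libraries of wild-type cells and of 2 MCM2_2A clones, were not analysed here. A single library allows no comparison of groups, no replicate error and no test, and its depth is unknown.

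OK-seq reads the strand of Okazaki fragments and so shows which way replication forks travel. An initiation zone is a stretch from which forks leave in both directions, and the breakpoint is the bin in it given as the point of change. In mammalian cells many such zones lie between active genes in early replicating chromatin, whereas gene deserts are long stretches with few or no coding genes that are as a rule A+T-rich and late replicating. Deserts often flank genes for developmental regulators and for surface proteins of nerve cells, and they can hold distant enhancers and long noncoding RNA (lncRNA) genes, whose transcripts are not translated.

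Some noncoding genes in desert zones are shown first, because they are annotated transcription units that these zones do have. The microRNA genes were picked out after their values were seen, and other noncoding genes lay nearer to a breakpoint. Mature microRNAs are short RNAs that pair with messages through their seed, bases 2 to 8. The annotation placed 5 miRNA genes in desert zones. A miRNA gene was present in 1.78% of desert zones (0.762 to 4.10%) and in 8.78% of the other zones (7.74 to 9.94%). The 6 mature sequences of these genes (RefSeq, GRCm38.p6) follow 5′ to 3′ with the seed in capitals.
mmu-miR-6372: aGAACUGGggaaacuuccagccu
mmu-miR-6411: uAGCAUGUguaguacauaaug
mmu-miR-205-5p: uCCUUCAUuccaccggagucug
mmu-miR-205-3p: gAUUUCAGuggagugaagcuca
mmu-miR-6379: uCCCUGGAguuuuacagcuaga
mmu-miR-6373: uAUGGGAAuaucuaggagguga
The 6 seeds all differed, so these genes do not form a seed family. Mir6372 (chr11:26202240-26202348) was the nearest to a breakpoint, at 1.74 kb. Mir6411 (chr10:104287269-104287376) lay 12.1 kb away. Mir205 (chr1:193507463-193507530), known as a microRNA of epithelial cells, lay 23.97 kb away, and Mir6379 and Mir6373 lay 30.2 and 67.9 kb away.

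Starts of 4 lncRNA genes near desert breakpoints show how far such promoters can differ. Gm29843 was the nearest to a breakpoint, and the others were picked out after their values were seen. They are not a typical sample: 5730522E02Rik had the most CG dinucleotides of the 53 lncRNA starts with a promoter sequence in desert zones. Each sequence (RefSeq, GRCm38.p6) runs from 250 bases before to 50 bases after the start, 5′ to 3′ along the gene, with each CG dinucleotide in capitals.
Gm29843: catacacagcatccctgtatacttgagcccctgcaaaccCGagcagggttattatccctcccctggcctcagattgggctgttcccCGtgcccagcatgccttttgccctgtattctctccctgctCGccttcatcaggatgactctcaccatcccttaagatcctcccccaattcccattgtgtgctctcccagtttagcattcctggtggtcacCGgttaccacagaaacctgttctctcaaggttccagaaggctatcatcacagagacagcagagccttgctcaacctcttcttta
Celrr: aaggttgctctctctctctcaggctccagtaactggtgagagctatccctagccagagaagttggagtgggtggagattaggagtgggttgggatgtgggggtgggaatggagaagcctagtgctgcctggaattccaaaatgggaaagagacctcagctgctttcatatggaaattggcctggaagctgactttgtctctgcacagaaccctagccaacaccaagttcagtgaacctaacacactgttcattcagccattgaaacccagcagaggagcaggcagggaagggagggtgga
Lncenc1: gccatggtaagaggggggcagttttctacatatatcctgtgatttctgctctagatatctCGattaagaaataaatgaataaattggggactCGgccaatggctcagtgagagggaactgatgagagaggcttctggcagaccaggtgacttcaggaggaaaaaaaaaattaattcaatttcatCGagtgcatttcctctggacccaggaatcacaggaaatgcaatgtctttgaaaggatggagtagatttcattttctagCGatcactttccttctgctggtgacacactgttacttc
5730522E02Rik: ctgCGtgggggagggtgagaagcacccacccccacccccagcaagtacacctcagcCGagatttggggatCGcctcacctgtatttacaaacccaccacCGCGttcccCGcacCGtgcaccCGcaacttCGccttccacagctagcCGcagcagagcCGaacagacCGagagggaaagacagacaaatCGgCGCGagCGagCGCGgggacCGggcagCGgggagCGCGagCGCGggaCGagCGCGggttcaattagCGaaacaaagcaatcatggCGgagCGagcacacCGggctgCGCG
The Gm29843 start (chr5:116802446-116802745, plus strand) lay 0.196 kb from a breakpoint, closer than any other lncRNA end in a desert zone. The Celrr sequence (chr1:121087155-121087454, plus strand) holds 0 CG dinucleotides, and those of Gm29843 and Lncenc1 (chr13:97434720-97435019, plus strand) hold 4 each. The 5730522E02Rik sequence (chr11:26210527-26210826, minus strand) holds 33 and is 65.3% G+C, the pattern of a CpG island, as many active coding promoters have. It lies in the zone that also holds Mir6372, in the desert between Bcl11a and Fancl.

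Desert zones were sparse for the length of sequence that could hold them. Sequence more than 100 kb from any coding gene made up 656.5 Mb, or 27.3% of the 2402 Mb searched, in 1386 separate deserts. It held 0.428 breakpoints per Mb (exact Poisson 95% interval 0.379 to 0.481), against 1.47 per Mb (1.41 to 1.53) in the other 1745.5 Mb, a ratio of 3.43. These intervals, like all intervals below, cover counting error or the spread over zones of this library and not error between libraries. Parts of deserts that are assembly gaps or repeats, where reads cannot be placed, were not measured here.

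Within deserts the density did not fall further with distance. Breakpoints 100 to 200 kb from the nearest coding gene numbered 82, or 0.413 per Mb. The classes of 200 to 400 kb and 400 to 800 kb held 74 and 67 breakpoints, or 0.370 and 0.427 per Mb. Beyond 800 kb there were 58, or 0.573 per Mb (0.435 to 0.741), and the intervals of all 4 classes overlapped. The drop lay nearer to the genes. Outside gene bodies density was 3.06 per Mb within 20 kb of a gene and 2.44 from 20 to 50 kb. From 50 to 100 kb, which is outside the rule, it was 0.478 (0.383 to 0.590), already at the desert level. Inside gene bodies it was 0.844 per Mb (0.788 to 0.904).

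**Figure D1:**
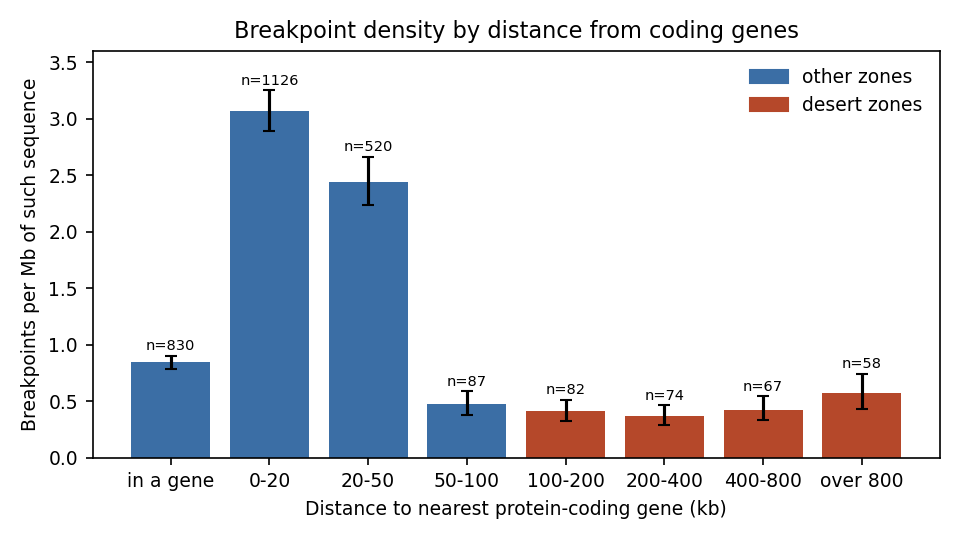
Breakpoints per Mb (vertical axis) in sequence at each distance from the nearest protein-coding gene (horizontal axis, kb), with exact Poisson 95% intervals as bars and the number of zones above each. Density is 0.844 per Mb inside gene bodies. Outside them it falls from 3.06 per Mb within 20 kb of a gene to 0.478 at 50 to 100 kb. In the 4 desert classes it lies between 0.370 and 0.573.

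The rule has a threshold, so the zones on either side of it are given without a test. Just outside lay breakpoints 97.2, 97.6 and 99.3 kb from a coding gene, between Galnt13 and Kcnj3, Zfat and Khdrbs3, and Bckdhb and Tent5a, with zones 142, 185 and 172 kb wide. Just inside lay breakpoints at 100.5, 101.05 and 102.75 kb, between Rragc and Pou3f1, Astn2 and Tlr4, and Slco6d1 and Cntnap5b, with zones 100, 114 and 77 kb wide.

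Most desert breakpoints were well past the limit. The median distance to the nearest coding gene was 340.1 kb (order-statistic 95% interval 287 to 411), the quartiles were 186 and 648 kb and the highest value 1958 kb. More than 200 kb away lay 199 (70.8%), more than 500 kb away 105 (37.4%) and more than 1000 kb away 35 (12.5%). The farther of the 2 flanking coding genes lay at a median of 1067 kb, and 3 breakpoints had a coding gene on only 1 side. These distances follow from the rule and the map of genes and are a description.

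The 6 most remote breakpoints lay in deserts named here by their bordering genes. The breakpoint farthest from any coding gene lay 1958 kb from Celf4, an RNA-binding protein gene, and 2553 kb from Pik3c3, a lipid kinase of membrane traffic, in a zone 141 kb wide. The next lay 1738 kb from D3Ertd751e and 1837 kb from the protocadherin gene Pcdh10, in a zone of 59 kb. Between the teneurin gene Tenm3 and Aga, a lysosomal enzyme gene, a breakpoint lay 1651 kb from Tenm3 in a zone of 100 kb. Between Zeb2, a repressor of epithelial genes, and the activin receptor gene Acvr2a the nearer gene was 1635 kb away, with a zone of 63 kb. The other two lay 1588 kb from the glypican gene Gpc5, opposite Slitrk5, and 1523 kb from Got2, a mitochondrial aminotransferase gene, opposite Cdh8, in zones of 80 and 72 kb. These 6 zones ran from 59 to 141 kb in width, so remote zones were not of a single size.

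Desert zones were narrower than the rest of the list. Their median width was 87 kb (82 to 96), the middle 50% ran from 68 to 118 kb and all of them from 36 to 192 kb. The 2563 other zones had a median of 114 kb (112 to 116), ran from 39 to 200 kb and had quartiles of 84.5 and 139 kb. The 2 intervals did not overlap. Zones of 70 kb or less were 83 of the desert zones (29.5%, 24.5 to 35.1%) and 14.2% of the others (12.9 to 15.6%). An arm is the distance from the breakpoint to an edge, and the list holds none over 100 kb. The median left and right arms were both 43 kb in desert zones and 52 kb in the others. An arm at the limit was listed for 15 desert zones (5.34%) and 10.0% of the others. Both kinds were equally lopsided at the median: the shorter arm took 37.6% of the width in desert zones (35.7 to 39.6%) and 38.0% in the others (37.4 to 38.6%).

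**Figure D2:**
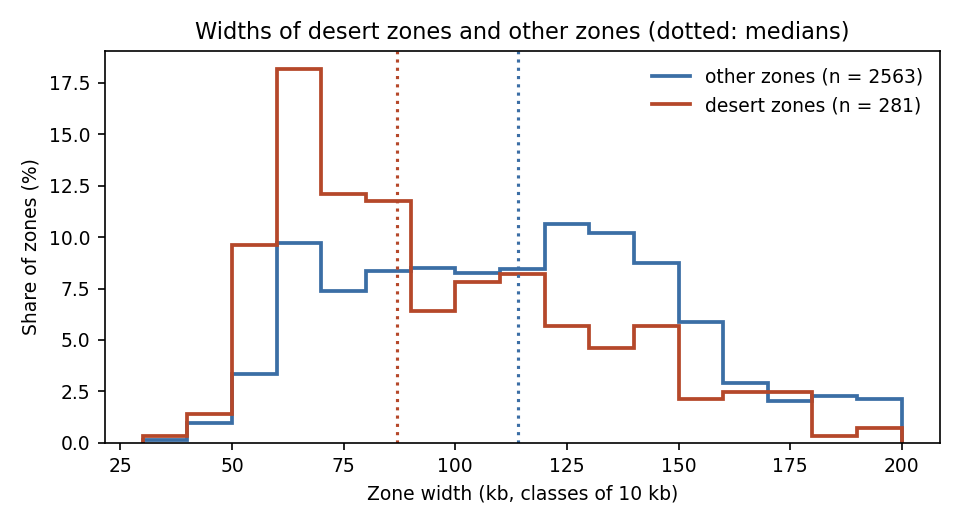
Share of zones (vertical axis, percent) by zone width (horizontal axis, classes of 10 kb) for the 281 desert zones and the 2563 other zones, with medians as dotted lines at 87 and 114 kb. Desert zones peak in the class of 60 to 70 kb, whereas other zones spread from 60 to 150 kb.

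The step in width sat close to the 100 kb limit and went with whether a zone reached a coding gene. Median widths were 112 to 123 kb in the 4 classes of zones up to 100 kb from a coding gene, and 82, 87, 90 and 87.5 kb in the desert classes from nearest to farthest. Among the 87 zones with a breakpoint 50 to 100 kb from a coding gene, the 49 that extended to it had a median width of 142 kb (128 to 152), and the 38 that did not had 94 kb (81 to 108). The 45 desert zones at 100 to 150 kb had 100 kb (77 to 110), and the 37 at 150 to 200 kb had 70 kb (63 to 93). A wide zone reaches farther, so width and reaching a gene are tied by construction, and their parts in the difference cannot be told apart here.

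The 4 widest desert zones came close to the 200 kb that 2 full arms would give. They lay between Rgs18 and Brinp3 (192 kb, 165 kb from Brinp3), between the adhesion gene Ncam2 and Mrpl39 (191 kb), between Ppp6c and Lrp1b (185 kb, left arm at the limit) and between Csmd3 and Trps1 (180 kb). The last one's breakpoint lay in the body of the lncRNA gene Gm41318 (chr15:49194642-49203161). A neighbouring breakpoint, with 3.999 kb between the bins, had a zone of 178 kb and lay 2.34 kb from the same gene. At the other end of the range the narrowest desert zone measured 36 kb.

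Desert breakpoints stood farther from the next breakpoint. The median distance to the nearest other breakpoint was 579 kb (486 to 656) for desert zones and 342 kb (331 to 359) for the others. Distances over 1000 kb were listed for 71 desert zones (25.3%, 20.5 to 30.7%) and 10.5% of the others. Close pairs also occurred: 59 desert breakpoints (20.996%, 16.6 to 26.1%) had another within 200 kb, against 25.7% of the others. The nearest breakpoint was itself a desert one for 133 (47.3%) and in the same desert for 117 (41.6%).

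The extremes of spacing were pairs 3.999 kb apart and breakpoints with no other within 2554 kb. A pair between Brinp3 and Pla2g4a, a phospholipase gene, was listed with the same edges for both breakpoints. Overlap was found for 13 pairs of neighbouring desert zones, 10 of which had identical edges on both sides, so some intervals carry 2 breakpoints. The most isolated desert breakpoint, 2743 kb from any other, lay between the bile acid transporter gene Slc10a2 and the ephrin gene Efnb2. The next 2 lay between Cdh8 and Cdh11 (2686 kb) and between Tecrl and Epha5 (2554 kb).

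The longer arm of a desert zone pointed away from the nearer coding gene more often than toward it. It pointed toward that gene in 107 of 277 desert zones with unequal arms (38.6%, 33.1 to 44.5%), against 1228 of 2521 other zones (48.7%, 46.8 to 50.7%). Toward the nearest breakpoint it pointed in 41.2% of desert zones (35.5 to 47.0%) and 38.9% of the others (37.0 to 40.8%), so both kinds had the shorter arm on the side of the neighbouring breakpoint more often. The longer arm was the left one in 52.0% and 50.1%. The nearer gene and the nearest breakpoint can lie on the same side, and their parts were not separated.

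Wide deserts held a zone far more often than narrow ones. Of the 1386 deserts, 199 (14.4%, 12.6 to 16.3%) held at least 1 breakpoint. The share was 1.37% of deserts up to 0.1 Mb wide, 5.45% from 0.1 to 0.2 Mb, 8.71% from 0.2 to 0.5 Mb, 22.0% from 0.5 to 1 Mb, 42.7% from 1 to 2 Mb and 86.9% (76.2 to 93.2%) above 2 Mb, where 53 of 61 held one. Widths here are those of the part more than 100 kb from coding genes. Density was 0.295 per Mb (0.108 to 0.643) in the narrowest class, which held 6 zones, and 0.296 (0.204 to 0.415) from 0.2 to 0.5 Mb. In the widest class it was 0.562 per Mb (0.456 to 0.684), an interval that overlapped the first of these and stood above the second. Breakpoints were not gathered in the middle: the middle 33.3% of each desert's length held 80 of the 281 (28.5%, 23.5 to 34.01%).

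Occupied deserts mostly had a single zone. There were 138 with 1 breakpoint, 43 with 2, 16 with 3, 1 with 4 and 1 with 5. The desert with 5 breakpoints lay between Slc39a10, a zinc transporter gene, and Tmeff2, a transmembrane protein gene, 3.98 Mb apart. Its zones were 60, 63, 74, 77 and 116 kb wide from left to right. In all 5 the left arm was the longer, with left and right arms of 44 and 16, 48 and 15, 57 and 17, 61 and 16, and 84 and 32 kb. The desert with 4 lay between the adhesion gene Alcam and Zpld1, 2.77 Mb apart, with zones of 112, 86, 86 and 114 kb. Left arms were the longer in 3 of these 4 zones and equal to the right arm, at 43 kb, in the other one.

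**Figure D3:**
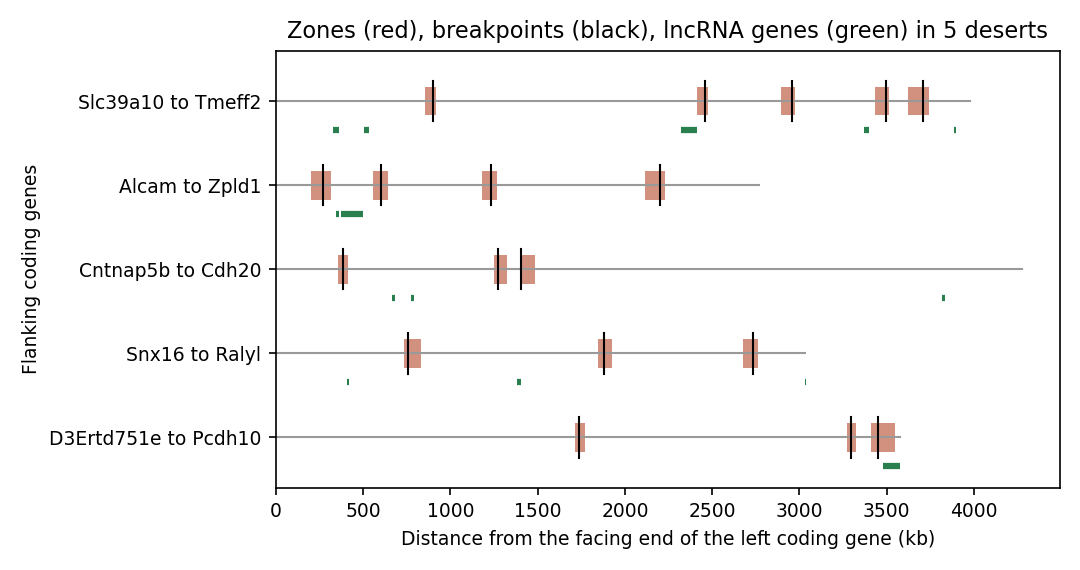
Position of zones (red bars), breakpoints (black ticks) and lncRNA gene bodies (green bars) along 5 deserts with 3 to 5 breakpoints each, in kb from the facing end of the left coding gene (horizontal axis); grey lines span the gap to the right coding gene, and short lncRNA genes are drawn at a minimum length. The 5 zones between Slc39a10 and Tmeff2 extend farther to the left than to the right of their ticks, and most zones drawn here touch no lncRNA gene.

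Of the 61 deserts over 2 Mb, 8 had no breakpoint. The widest of them lay between Olfm4 and the protocadherin gene Pcdh17 (4.22 Mb), between Lrrc4c, a synaptic adhesion gene, and Iftap (3.73 Mb) and between Stim2, a calcium sensor of the endoplasmic reticulum, and Pcdh7 (3.395 Mb). They were close in width to the widest desert of all, 4.34 Mb between Pcdh20 and Pcdh9, which held 3.

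Chromosomes differed in the share of their zones that were desert zones. The share ran from 2 of 91 on chromosome 19 (2.20%, 0.605 to 7.66%) to 25 of 145 on chromosome 12 (17.2%, 11.96 to 24.2%). Per Mb of desert the range was 0.190 (0.0231 to 0.688) on chromosome 19 to 0.711 (0.460 to 1.05) on chromosome 6, and these 2 intervals overlapped.

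About as many desert zones had a noncoding gene as had none. A noncoding gene, counted when any part of it fell in the zone, was present in 135 (48.0%, 42.3 to 53.9%), against 78.4% of the other zones (76.8 to 79.97%) and 75.4% of the whole list. A lncRNA gene was present in 74 (26.3%, 21.5 to 31.8%), against 60.1% of the others and 56.8% of the whole list. Pseudogenes, the decayed copies of genes, reached 24.2% of desert zones and 35.97% of the others, and genes of small RNAs 9.25% and 20.99%. Desert zones are narrower, which lowers such shares, so densities are given next.

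Per length, desert zones had the noncoding genes of any desert sequence and no more. They held ends of 90 lncRNA genes, or 3.46 per Mb (2.78 to 4.25), beside 3.64 (3.49 to 3.79) in all desert sequence and 8.96 (8.62 to 9.31) in the other zones. Pseudogene ends came to 3.04 per Mb in desert zones and 2.86 in all desert sequence. Small RNA genes came to 0.999 per Mb (0.653 to 1.46) in desert zones and 1.17 (1.09 to 1.26) in all desert sequence.

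The breakpoints themselves gave the same picture. In desert zones 26 breakpoints (9.25%, 6.39 to 13.2%) lay in a lncRNA gene body, while 10.8% of all desert bins of 1 kb and 10.6% of the other breakpoints did. A lncRNA gene lay within 20 kb of 49 desert breakpoints (17.4%, 13.4 to 22.3%), beside 20.9% of desert bins and 37.6% of the other breakpoints. For any noncoding gene within 20 kb the count was 74 (26.3%, 21.5 to 31.8%), beside 32.3% of desert bins and 53.0% of the other breakpoints. The share of desert bins lay inside the first 2 of these intervals and just above the third.

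**Figure D4:**
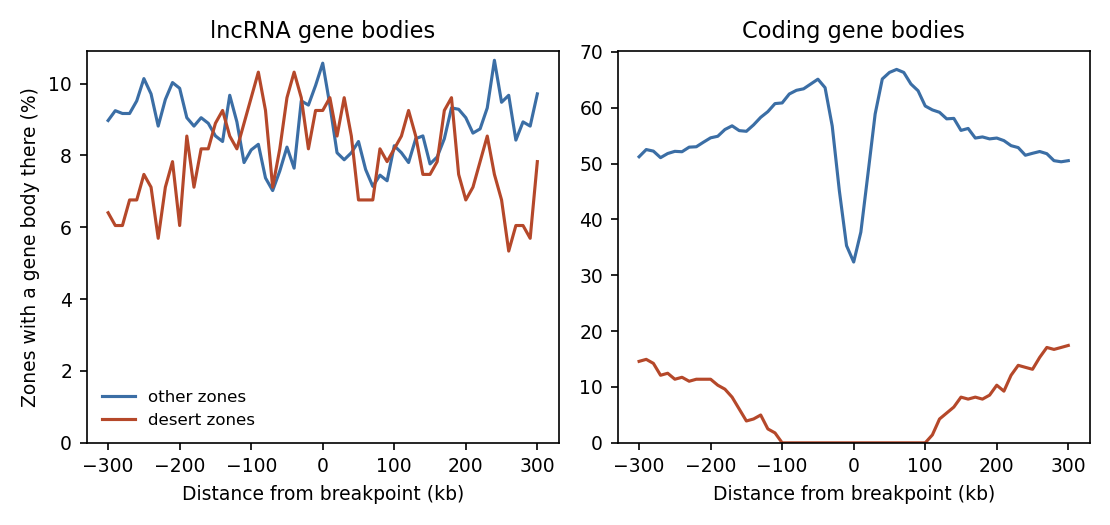
Share of zones (vertical axes, percent) with a lncRNA gene body (left) or a protein-coding gene body (right) at each distance from the breakpoint (horizontal axes, kb), for desert zones and other zones. lncRNA cover of desert zones stays between 5.34 and 10.3% with no clear peak at the breakpoint, while coding cover of the other zones dips to 32.4% at the breakpoint and that of desert zones is 0 within 100 kb by the rule.

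Desert zones more than 400 kb from a coding gene touched a lncRNA gene less often than those at 100 to 200 kb. The share of all desert sequence at the same distances is not given here. A lncRNA gene reached into 41.5% of desert zones 100 to 200 kb from a coding gene (31.4 to 52.3%), 31.1% at 200 to 400 kb, 10.4% at 400 to 800 kb (5.15 to 20.03%) and 17.2% beyond 800 kb (9.64 to 28.9%). Zones with a lncRNA gene within 20 kb of the breakpoint were no wider than the rest, with medians of 86 kb (77 to 103, n = 49) and 88 kb (81 to 96, n = 232). Their nearest breakpoint was at 421 kb (281 to 656) and 600.5 kb (519 to 683), with overlapping intervals.

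The long noncoding genes in desert zones were mostly unnamed models, and the share of such models among lncRNA genes elsewhere is not given here. Without predicted models, 6.05% of desert zones and 20.6% of the others held a noncoding gene, against 48.0% and 78.4% with them. Of 93 long noncoding genes in desert zones, 89 carried predicted or clone names, and 27 held a desert breakpoint in their body. An end within 2 kb of a breakpoint was found for 8 of them: Gm29843 at 0.196 kb, Gm35154 at 0.386 kb, 4931420L22Rik at 0.576 kb, Gm30779 at 0.605 kb, Gm41932 at 1.28 kb, Gm32913 at 1.30 kb, Gm36653 at 1.83 kb and Gm33963 at 1.94 kb. The last 4 held the breakpoint in their body. Gm35154 (chr10:44598899-44689114) runs toward the breakpoint from the side of Prdm1, a transcriptional repressor needed in germ cells and plasma cells, whose own nearest desert breakpoint was 161 kb away. A730004F24Rik ended 2.34 kb from a breakpoint, and Gm40623 began 2.98 kb before one and ran through it.

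A few lncRNA genes, all but 5730522E02Rik with names of their own, were picked out after their values were seen. Celrr (chr1:121087405-121120975), a lncRNA gene near the homeobox gene En1, held a breakpoint 3.10 kb from its start, in a zone of 78 kb. Lncenc1 (chr13:97434970-97497664), described from embryonic stem cells, held a breakpoint 4.53 kb from its start, in a zone of 55 kb between Enc1 and Arhgef28. Mir205hg, the host gene of miR-205, lay 21.3 kb and Lncpint, known as a p53 target, 29.0 kb from a breakpoint. 5730522E02Rik (chr11:25616846-26210576) spans 594 kb of the desert beside Bcl11a, a regulator of blood and brain development, and its breakpoint lay 10.1 kb inside its start.

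Small RNA genes and pseudogenes were also counted at the breakpoint. Of 26 small RNA genes in desert zones, 0 held a breakpoint, though genes this short have little chance to. Any noncoding gene body covered 11.03% of desert breakpoints and 11.72% of all desert bins. After Mir6372 the nearest were Gm23505, a guide RNA gene, at 6.15 kb, the snRNA gene Gm26058 at 10.8 kb, the snoRNA gene LOC115488222 at 11.97 kb, Mir6411 at 12.1 kb and the snRNA gene Gm25602 at 12.5 kb. The snRNA genes LOC115490040, Gm24126, LOC115486593 and Gm25160 lay 16.8 to 22.0 kb away. Of 80 pseudogenes, 6 held a breakpoint, among them Vmn2r-ps11, Gm15529, Amd-ps2, Gm46188 and Frg2f3. Vmn2r-ps11, a pheromone receptor pseudogene model of 212 kb, covers the breakpoint between Vmn2r7 and Kcnab1, while Frg2f3 is 1.08 kb long.

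The lncRNA promoters in desert zones were poorer in CpG than those in other zones. The desert intervals below held the values of all lncRNA genes, so no difference from that background was shown. Starts of lncRNA genes in all desert sequence were not measured here. CpG depletion is given as the observed over expected ratio, which is near 1 in CpG islands and low in most of the genome. The 53 lncRNA starts with a promoter sequence in desert zones had a median ratio of 0.169 (0.136 to 0.264) and a G+C content of 46.7% (42.3 to 49.7%). The 1783 lncRNA starts in other zones had 0.305 (0.289 to 0.320) and 51.0%, all 9291 lncRNA genes 0.249 and 48.7%, and coding starts in other zones 0.728 and 60.3%. A ratio of 0.6 or more was found for 4 of the 53 (7.55%, 2.97 to 17.9%), against 23.8% of lncRNA starts in other zones and 14.8% of all. The 4 were 5730522E02Rik, Gm42298, Lncpint and Gm41318.

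No annotated gene of any kind lay within 100 kb of 75 desert breakpoints. Their zones had a median width of 92 kb (85 to 102), an interval that holds the 87 kb of all desert zones, and their nearest breakpoint was at 579 kb (486 to 844). The median distance to any gene was 160.8 kb. The 3 farthest lay between Kcnt2 and Cdc73 (540.3 kb), between Pcdh20 and Pcdh9 (456 kb) and between Nxph1 and Ndufa4 (421 kb), with zones of 94, 113 and 61 kb.

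Antigen receptor loci met the rule because their V segments are not typed as protein-coding in the annotation. There were 6 such breakpoints, 2 each in the immunoglobulin kappa, immunoglobulin heavy and T cell receptor alpha loci. The nearest segments were Igkv12-89 (2.19 kb), Igkv6-29 (5.96 kb), Ighv9-2 (2.07 kb), Ighv1-46 (6.51 kb), Trav15n-1 (1.60 kb) and Trav15-1-dv6-1 (10.3 kb). The zones held 4 to 13 segments each, so these 6 are not empty of genes. Without them 275 zones were left, with the same median width of 87 kb.

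The coding genes that flank desert breakpoints were often genes of nerve cell adhesion and axon guidance. Among 369 different flanking genes, 57 (15.4%, 12.1 to 19.5%) belonged to this list, against 4.29% of the 2352 genes bordering any desert, 1.32% of the flanks of other zones and 0.910% of all coding genes. The lists were drawn up with earlier results of these data known. The 57 included 11 cadherin genes, 6 non-clustered protocadherin genes and 4 Slitrk genes, with teneurin, contactin and Robo genes. Cntnap5b, of a contactin-associated family, flanked 5 desert breakpoints, and Cdh8, Ncam2 and Pcdh9 flanked 4 each. The members nearest to a breakpoint were Cntnap5b at 103 kb, Cdh19 at 112.5 kb and Cdh2, the N-cadherin gene, at 118 kb.

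The list's share was higher at the borders of wider deserts, and wide deserts hold most desert zones. Above 2 Mb, 30.8% (22.7 to 40.2%) of the 104 genes bordering occupied deserts were in the list and 31.2% (14.2 to 55.6%) of the 16 bordering deserts without a zone. From 1 to 2 Mb the shares were 14.6% and 12.9%. From 0.5 to 1 Mb they were 15.6% (9.50 to 24.4%) with a zone and 4.38% (2.62 to 7.21%) without, and below 0.5 Mb 6.67% (3.09 to 13.8%) and 2.36% (1.75 to 3.19%). In deserts over 1 Mb the share was thus alike with and without a zone, with wide intervals, and in narrower deserts it was higher with one, with intervals that stood apart from 0.5 to 1 Mb and overlapped slightly below 0.5 Mb.

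**Figure D5:**
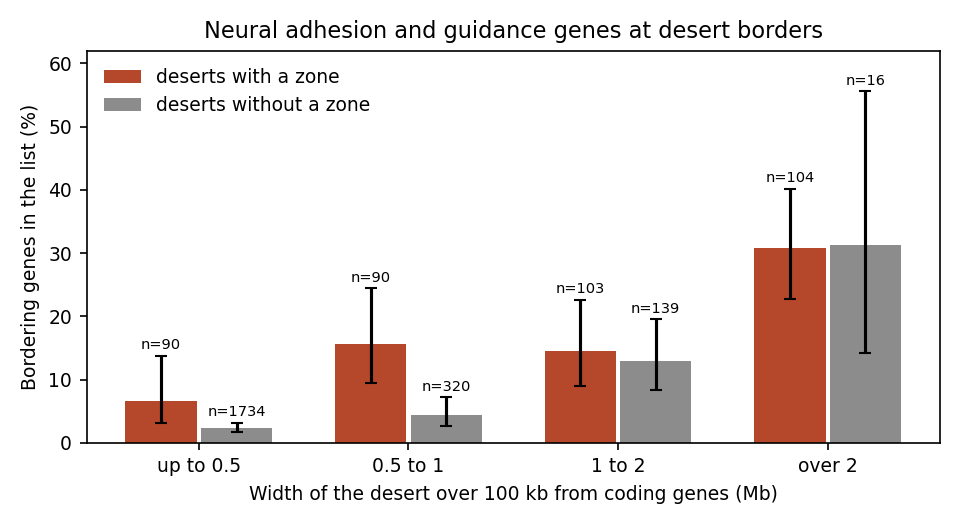
Share of bordering coding genes that belong to the neural adhesion and guidance list (vertical axis, percent) by desert width (horizontal axis, Mb), for deserts with and without a breakpoint; bars give Wilson 95% intervals and n counts genes. The 2 kinds differ by over 10 points from 0.5 to 1 Mb (15.6 and 4.38%) and by under 2 points above 1 Mb.

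The other lists had shares close to those among the genes bordering any desert. Developmental transcription factors made up 14 of the 369 flanking genes (3.79%, 2.27 to 6.27%), against 4.25% of the genes bordering any desert. Olig3, a regulator of neural progenitors, lay 153 kb, Prdm1 161 kb and Sall3 199 kb from a desert breakpoint. Ion channels and neurotransmitter receptors made up 12 (3.25%, 1.87 to 5.60%), against 3.19%. Grik2, a glutamate receptor gene, lay at 120.3 kb, and the potassium channel genes Kcnma1 and Kcnab1 at 122 and 127 kb. Secreted signalling ligands made up 4 (1.08%), against 1.23%, with Tgfb2 at 113 kb, Fgf12 at 194 kb and Pdgfd at 229.9 kb.

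Large gene families and housekeeping genes gave small counts, near those of the desert background. Zfp zinc finger genes made up 4 (1.08%, 0.422 to 2.75%), against 1.4% of the genes bordering any desert, with Zfp648 at 119.7 kb, Zfp804a at 193 kb and Zfp507 at 468.5 kb. Ribosomal protein genes made up 2 (0.542%, 0.149 to 1.95%), against 0.383%, and were Rplp1 at 245 kb and Rps29 at 1008 kb. Of the vomeronasal receptors, 1 (0.271%), Vmn2r7 at 103 kb, flanked a desert breakpoint, against 0.723%. Olfactory receptors, pluripotency factors and DNA replication genes numbered 0 of 369, which allows a share of up to 0.813% (3 counts), beside 0.255%, 0.34% and 0.0425% of the genes bordering any desert. For these 3 lists the share that a count of 0 allows is above the desert background, so no difference was detectable.

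Flanking genes faced the desert with their start slightly more often than with their end. The end that faced the breakpoint was the start for 127 of 223 nearer flanks with known strand (57.0%, 50.4 to 63.3%) and for 58.2% of both flanks (53.6 to 62.7%). It was the start for 56.9% (51.3 to 62.4%) of the borders of occupied deserts and 52.1% (49.8 to 54.4%) of the borders of deserts without a zone, and these 2 intervals overlapped.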

How the data were processed

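A list of initiation zones from 1 OK-seq library of wild-type E14TG2a cells was analysed. The deposited values are distances in bp and bin positions; per the file headers each entry gives a breakpoint bin of 1 kb, the bins of a minimum and a maximum at its sides, the distances to both, the size and the nearest other breakpoint. The submitters' processing notes name the build mm10 and, among the tools, Trim Galore 0.4.2, Picard 2.8.2, SAMtools, Bowtie and BWA 0.7.13. The sources used here state neither the role of each tool nor the zone caller and its thresholds, nor how Okazaki fragments were isolated. Bin positions are printed as the list gives them. The list holds no counts or scores, so depth is unknown and no zone could be weighted.

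Gene positions and types came from a RefSeq table of GRCm38.p6 (mm10), without 333 genes placed on scaffolds, which left 20558 protein-coding and 25473 noncoding genes. Strand came from promoter sequences and was known for 16457 coding and 9291 of 12330 lncRNA genes. Deserts are stretches of sequence on chromosomes 1 to 19 that meet the same rule, with borders placed to the base. The distance classes and the shares of desert bins used bins of 1 kb. Distances run from the midpoint of the bin to the nearest base of a gene, and widths from bin to bin. Shares have Wilson, densities exact Poisson and medians order-statistic intervals (95%), and no p-value was computed. Named zones were the 6 farthest from coding genes, the 4 widest, the 4 nearest to another breakpoint, the 3 most isolated and the deserts with most zones. Named genes were the 3 flanking genes of each list nearest to a breakpoint, the noncoding genes nearest to one, and others as stated beside them. Some items that these rules pick are not reported here. The members and the gene lists were chosen with earlier results of these data known. Other limits, gene sets and zone definitions were tried as alternatives. The assignment of zones to deserts was tested on simulated data. Python 3.11.15, numpy 2.4.6, pandas 2.3.3, scipy 1.17.1 and matplotlib 3.10.9 were used.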

Additional observations from a re-analysis of the deposited data

How the results depend on the processing

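No paired analysis was possible because 1 library has a file here. Of 71 alternatives, 11 moved a value past its interval or, for the count of zones, by more than 1.5 times, and 60 did not. The count was 368 zones with a limit of 50 kb and 199 with 200 kb, both outside the interval of the main share. Counting genes of all kinds left 75 zones. With a limit of 50 kb the median width was 97 kb, 54.6% of zones held a noncoding gene and 11.1% of deserts held a zone; with 200 kb the last 2 shares were 41.7% and 18.8%. The share with a noncoding gene was 32.4% without pseudogenes, 23.5% for a gene end within 20 kb of the breakpoint and 6.05% without predicted models. At the breakpoint it was 1.78% (0.762 to 4.10%) without predicted models, an interval that holds the 0.858% of the other zones. With predicted models the shares at the breakpoint were 11.03% in desert zones and 11.98% in the others. Counted per zone, 20.04% of flanking genes were in the neural adhesion and guidance list. Width, neighbour distance, density and the share with a noncoding gene stayed on the same side of the other zones under 7, 6, 5 and 9 alternatives each. Counting antigen receptor segments as coding was added after the data were seen. The definition by whole zone was not run for density, because it fixes no length of sequence. With 1 list of unknown depth, whether weak zones in deserts were missed was not tested.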
